A study of Mus musculus with 6 samples.

Results

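The genes described here code for 10 proteins that the yolk sac endoderm and the embryonic liver are known to secrete: the albumin relatives Afp and Alb, the carriers Ttr, Trf and Rbp4, the apolipoproteins Apoa1, Apoa2, Apob and Apoe, and the selenium carrier Selenop. They were chosen by name, and each was read at the probe sets that the platform table assigned to its symbol alone. For 9 of the 10 genes such a probe set was found, out of 18194 genes with a probe set of their own in the whole series. No value is given for Trf, whose probe set is shared with another symbol. The 9 genes had 20 probe sets, of which 17 were bright enough to be tested, and they stand among 13956 genes tested in all.

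RNA of whole FVB mouse embryos at E10.5 was compared between diabetic and normal pregnancies. Diabetes-exposed embryos came from dams in which diabetes had been induced at an age of 7 to 9 weeks. These dams had received 2 injections of 100 mg/kg streptozotocin, a toxin of pancreatic beta cells, within 1 week. Their blood glucose was above 250 mg/dl. Control embryos came from dams without diabetes. Each group held 3 pools, each pool held RNA of 3 embryos from different pregnancies, and 1 Affymetrix Mouse 430 2.0 array was hybridised per pool. No member was deleted or otherwise targeted, since the exposure was to the diabetes of the dam, and the drug and the diabetes cannot be told apart in this design.

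Before the liver takes over, the endoderm of the visceral yolk sac makes most of the plasma proteins of the embryo. It takes up lipids and vitamins of maternal origin and passes them on bound to carrier proteins and packed in lipoproteins. The liver bud forms from foregut endoderm at midgestation, and its hepatoblasts start the same secretory programme under factors of the HNF, FOXA and GATA families. Alpha-fetoprotein is the main plasma protein of that period and is replaced by albumin after birth.

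Afp and Alb lie next to each other on mouse chromosome 5, with annotated starts 29844 bases apart. Their promoter windows in RefSeq (GRCm38.p6, plus strand, 250 bases before to 50 bases after the annotated start) are shown because these neighbours, which liver factors are known to control together, gave unlike values at the brightest Afp probe set. The windows are chr5:90490464-90490763 for Afp and chr5:90460620-90460919 for Alb. Capitals mark GTTAAT, the core of a binding site for HNF1, a factor of hepatic genes, and TATAAA, where the TATA-binding protein can sit.

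Afp: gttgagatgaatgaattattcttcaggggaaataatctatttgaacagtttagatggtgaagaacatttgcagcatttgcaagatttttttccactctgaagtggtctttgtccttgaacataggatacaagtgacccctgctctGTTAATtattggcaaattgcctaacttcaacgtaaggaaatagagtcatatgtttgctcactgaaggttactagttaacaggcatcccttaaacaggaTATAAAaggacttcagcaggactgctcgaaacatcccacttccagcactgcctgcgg
Alb: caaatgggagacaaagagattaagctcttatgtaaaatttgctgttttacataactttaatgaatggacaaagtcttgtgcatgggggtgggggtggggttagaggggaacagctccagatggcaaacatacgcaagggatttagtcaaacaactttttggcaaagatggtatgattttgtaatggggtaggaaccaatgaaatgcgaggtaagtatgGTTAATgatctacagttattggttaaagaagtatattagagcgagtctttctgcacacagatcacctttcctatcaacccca

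Both strands were searched. GTTAAT began 105 bases before the annotated start in Afp and 32 bases before it in Alb, and 7.1% of 32851 promoter windows of this length held it. TATAAA began 7 bases before the annotated start in Afp, was not found in the Alb window, and stood in 13.6% of all windows. CCAAT, the box bound by NF-Y, occurred in both windows and in 37.4% of all windows, with no overlap with the other motifs in these windows. AGGTCA, the half-site of nuclear receptors, was in neither and in 16.3% of all windows. The 8 members with a window read here had 14 windows. At least 1 window held GTTAAT in 3 members, TATAAA in 6, CCAAT in 4 and AGGTCA in 1, which was Apoa2. These counts are per gene and the shares above are per window, so they cannot be compared directly. These matches describe letters and not occupied sites.

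Signals are intensities on a linear scale in which the authors brought each array to the same average. The diabetes-exposed arrays had lower median signals, between 74.1 and 78.9, than the control arrays, between 82.5 and 103.3. They also had a larger excess of 3' over middle signal in the poly-A RNAs that are spiked into each sample before labelling. The mean spike ratio was 6.56, 3.47 and 7.0 in diabetes-exposed pools 1, 2 and 3, against 2.1, 2.07 and 2.52 in control pools 1, 2 and 3 (exact permutation p = 0.1, the smallest that 3 against 3 arrays allow). The 3' over 5' ratio of Actb, a cellular transcript, was 10.1, 3.09 and 10.3 in diabetes-exposed pools and 1.71, 1.76 and 2.19 in control pools. The ratio was thus higher in all diabetes-exposed pools than in all control pools and lowest among the exposed ones in pool 2. It moved with the groups, and fits that hold it as a covariate are given below.

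**Figure D1:**
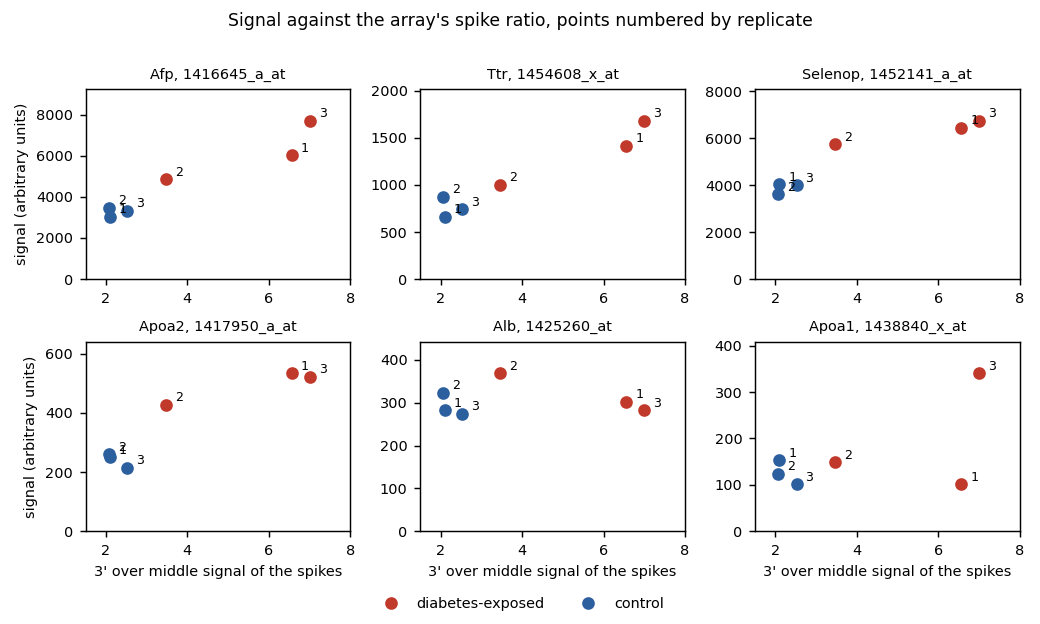
Signal of Afp, Ttr, Selenop, Apoa2, Alb and Apoa1 (linear scale, arbitrary units) against the mean ratio of 3' to middle signal of the poly-A spikes, 1 numbered point per pool, diabetes-exposed in red and control in blue. The spike ratio was 3.47 to 7.0 in diabetes-exposed pools and 2.07 to 2.52 in control pools; Afp, Ttr, Selenop and Apoa2 are also apart on the signal axis, whereas Alb and Apoa1 overlap there.

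Of the 9 measured genes, 4 rose in diabetes-exposed embryos. These were Afp, Ttr, Apoa2 and Selenop, by 1.62-fold to 2.05-fold. None of the 9 fell, and 0 had a lower signal at an unadjusted p under 0.05. Among all genes tested, 17.6% were called higher and 19.9% were called lower (limma, Benjamini-Hochberg adjusted p under 0.05 over all probe sets). The median log2 fold change was 0.68 over the 9 genes and 0 over all genes. Under median centring, quantile normalization and cyclic loess 5 or 6 of the 9 rose and 0 fell. Those scalings also called more of all 13956 genes higher and fewer lower than the 2461 and 2779 of the reported fit. The counts were 4066 higher and 1218 lower under median centring, 3359 and 2145 under quantile normalization, and 2829 and 2369 under cyclic loess. All 9 fold changes were above 0, but those of Alb and Apoe were 0.11 each and within the spread of the pools. In whole-embryo RNA a change in the number of producing cells and a change in RNA per cell cannot be told apart.

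By probe set, 9 of 17 tested rose and 0 fell, against 14.4% of all tested probe sets called higher and 21.8% called lower. In 10 of the 17, all diabetes-exposed pools stood above all control pools. Groups did not overlap in 49.9% of all tested probe sets, and 21.9% of all tested probe sets had the diabetes-exposed pools higher without overlap. Diabetes-exposed pool 3 was the highest of the 6 arrays in 12 of the 17 probe sets and in 6 of the 9 genes, compared with 19.4% of all tested probe sets and 20.1% of all genes. Diabetes-exposed pool 2 was the lowest exposed pool in all 4 genes that rose, at the probe set read for each. At their other called probe sets, pool 2 was lowest at Ttr 1455913_x_at, pool 1 at Afp 1436879_x_at and pool 3 at Ttr 1451580_a_at. The share of all genes in which pool 2 was the lowest exposed pool is not given.

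**Figure D2:**
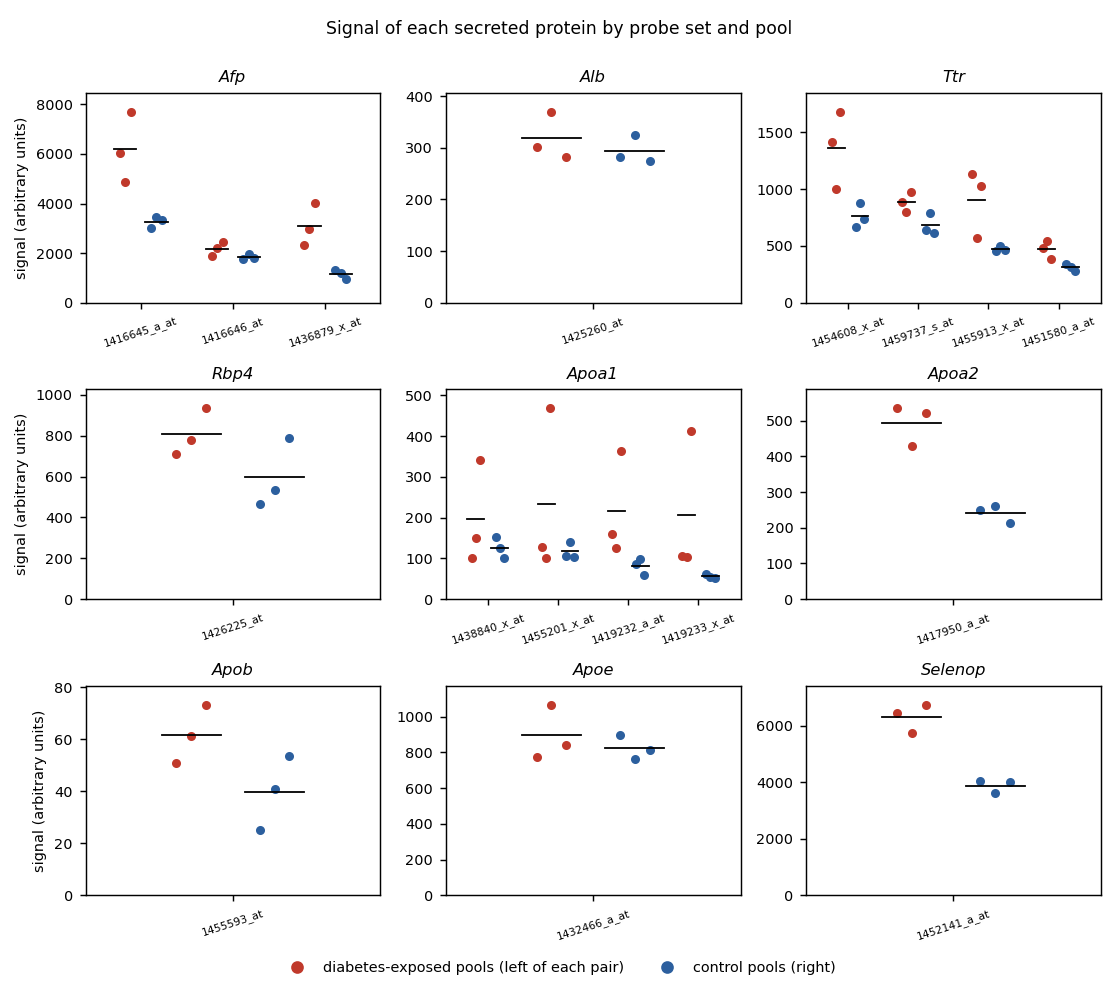
Signal (linear axis from 0, arbitrary units) at each of the 17 tested probe sets, 1 panel per gene and 1 point per pool, with diabetes-exposed pools left of control pools at each probe set and the group mean as a line. The groups are apart in Apoa2 and Selenop and overlap in Alb, Rbp4, Apob and Apoe, and in Apoa1 diabetes-exposed pool 3 lies above all other pools at every probe set.

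Alpha-fetoprotein (Afp), the fetal carrier of fatty acids and steroids in plasma, was read at its brightest probe set, 1416645_a_at. Its signal was 6026, 4860 and 7688 in the diabetes-exposed pools, against 3032, 3454 and 3319 in the control pools. All diabetes-exposed pools were above all control pools, and they spread more widely than the controls. The means were 6191 ± 1422 in diabetes-exposed and 3268 ± 215 in control pools (SD, n = 3 each), a log2 fold change of 0.90 ± 0.15 (SE, 95% interval 0.55 to 1.24, adjusted p = 0.0028, 1.86-fold).

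The probe sets of Afp did not all give this size of change. Probe set 1436879_x_at, whose suffix marks a set that may also bind other transcripts, read 2320.5, 2989 and 4019 in diabetes-exposed pools against 1301, 1184.5 and 965 in control pools. It rose 2.66-fold (log2 fold change 1.41, SE 0.19, adjusted p = 0.0013). Probe set 1416646_at read 1866, 2206 and 2456 in diabetes-exposed pools and 1772, 1973 and 1816 in control pools. There the groups overlapped and the log2 fold change of 0.22 did not pass (adjusted p = 0.16). A pair of Afp probe sets was too dim to be tested: 1436880_at ranged from 5.1 to 50.6 in diabetes-exposed pools and from 2.4 to 10 in control pools, and 1436881_x_at ranged from 5.7 to 112 in diabetes-exposed pools and from 2.5 to 59.4 in control pools.

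Albumin (Alb), the main plasma protein after birth, was measured by 1425260_at only. It read 302, 369 and 282.9 in the diabetes-exposed pools and 282.4, 324 and 274 in the control pools. The groups overlapped, and the log2 fold change was 0.11 (SE 0.16, 95% interval -0.24 to 0.46, adjusted p = 0.62). Under quantile normalization Alb was called higher (0.42, adjusted p = 0.0468). The interval leaves room for a fall or a rise. It ends below the 0.90 of Afp 1416645_a_at but holds the 0.22 of Afp 1416646_at, so the contrast with Afp rests on which Afp probe set is read.

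Within an array, the log2 ratio of Afp (1416645_a_at) to Alb signal is not moved by a single scaling factor. It was 4.32, 3.72 and 4.76 in diabetes-exposed pools and 3.42, 3.41 and 3.60 in control pools. All diabetes-exposed values were above all control values, a difference of 0.79 (exact permutation p = 0.1, two-sided, the smallest possible; adjusted p = 0.4 over 8 ratios). Normalizations that act on the intensity distribution brought the pair closer, with log2 fold changes of 0.70 for Afp and 0.42 for Alb under quantile normalization and 0.74 for Afp and 0.34 for Alb under cyclic loess. The ratios of Apob to Afp, Ttr to Rbp4, Apoa1 to Apoa2 and Apoe to Apoa1 overlapped between the groups, with exact permutation p between 0.4 and 0.8. A level of one probe set is not comparable to that of another, so only differences of such ratios between groups carry information.

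**Figure D3:**
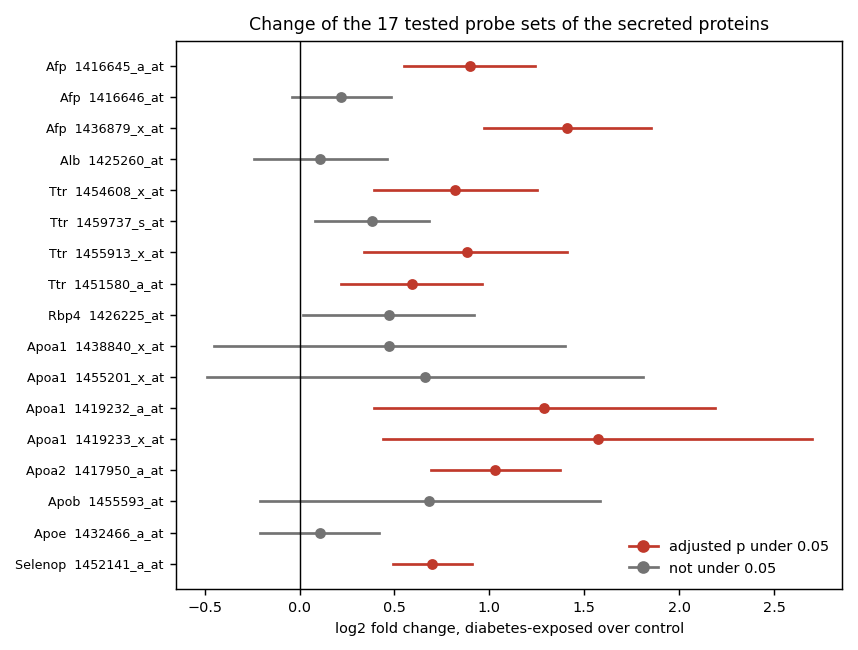
Log2 fold change (diabetes-exposed over control) of each tested probe set of the secreted proteins, 1 point per probe set with its 95% interval. Points are above 0 for all 17 probe sets, and those that passed the test belong to Afp, Ttr, Apoa1, Apoa2 and Selenop.

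Transthyretin (Ttr) carries thyroid hormone and, bound to retinol-binding protein, retinol. Probe set 1454608_x_at, the brightest, read 1414, 1003 and 1680 in the diabetes-exposed pools, against 663, 876 and 740.0 in the control pools. No control pool reached the lowest diabetes-exposed pool. The log2 fold change was 0.82 ± 0.19 (SE, adjusted p = 0.01).

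The other probe sets of Ttr pointed the same way. Probe set 1455913_x_at read 1133, 566.5 and 1024.5 in diabetes-exposed pools and 451, 503 and 466.5 in control pools (log2 fold change 0.88, adjusted p = 0.019). Probe set 1451580_a_at read 482, 543 and 387 in diabetes-exposed pools and 338, 318.5 and 276 in control pools (log2 fold change 0.59, adjusted p = 0.021). Probe set 1459737_s_at read 886.5, 795 and 973.5 in diabetes-exposed pools and 645, 789.7 and 610.3 in control pools, with a log2 fold change of 0.38 that missed the threshold at adjusted p = 0.0528 although the groups did not overlap. Diabetes-exposed pool 2 was the lowest exposed pool in all of these sets but 1451580_a_at, where pool 3 was.

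Retinol-binding protein (Rbp4) carries retinol, the precursor of retinoic acid, out of the liver and the yolk sac. It read 712, 777 and 933.5 in the diabetes-exposed pools and 463.5, 534 and 789 in the control pools (1426225_at). Control pool 3 lay above diabetes-exposed pools 1 and 2, so the groups overlapped. The log2 fold change was 0.47 ± 0.20 (SE, 95% interval 0.02 to 0.92, adjusted p = 0.1). Without control pool 3 it was 0.69, with an adjusted p of 0.013.

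Apolipoprotein A-II (Apoa2), a protein of high-density lipoprotein, showed the largest log2 fold change among the 9 genes at the probe set read for each. It read 534, 428 and 521 in the diabetes-exposed pools and 249.5, 261 and 214 in the control pools. Every diabetes-exposed pool exceeded every control pool by a wide gap. The means were 495 ± 57.7 in diabetes-exposed and 241 ± 24.4 in control pools (SD, n = 3 each), which gives a log2 fold change of 1.03 ± 0.15 (SE, adjusted p = 0.0015, 2.05-fold).

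Apolipoprotein A-I (Apoa1), the main structural protein of high-density lipoprotein, depended on 1 pool. At the brightest probe set, 1438840_x_at, the signals were 101.4, 149 and 340.5 in diabetes-exposed pools and 153, 124 and 101.4 in control pools. Diabetes-exposed pool 3 stood far above the others, and the remaining pools overlapped. The log2 fold change was 0.47 ± 0.41 (SE, adjusted p = 0.41), and without diabetes-exposed pool 3 it was -0.02. Probe set 1455201_x_at read 128, 102 and 467.6 in diabetes-exposed pools and 107, 139 and 104 in control pools (log2 fold change 0.66, adjusted p = 0.35; -0.02 without that pool).

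The dimmer probe sets of Apoa1 passed the test. Probe set 1419232_a_at read 160.3, 125 and 364 in diabetes-exposed pools and 85.0, 98.2 and 59.8 in control pools (log2 fold change 1.29 ± 0.39, SE, adjusted p = 0.032). Probe set 1419233_x_at read 107, 104 and 411 in diabetes-exposed pools and 60.9, 54.6 and 52.4 in control pools (log2 fold change 1.57 ± 0.49, SE, adjusted p = 0.036). In these, all diabetes-exposed pools were above all control pools. Without diabetes-exposed pool 3 the log2 fold changes were 0.83 and 0.91 (adjusted p = 0.086 and 0.055). Both also missed the threshold without control pool 1 (0.073 and 0.079), control pool 2 (0.0503 and 0.087) or control pool 3 (0.091 and 0.081), and without diabetes-exposed pool 1 the adjusted p was 0.059 and 0.04. The log2 ratio of 1438840_x_at to 1419233_x_at was -0.07, 0.52 and -0.27 in diabetes-exposed pools and 1.33, 1.19 and 0.95 in control pools, so these probe sets of Apoa1 moved unequally (difference -1.1, exact permutation p = 0.1, adjusted p = 0.4).

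Apolipoprotein B (Apob), on which very low-density lipoprotein is built, had a dim signal. Probe set 1455593_at read 50.9, 61.3 and 73.2 in diabetes-exposed pools and 25.1, 41.0 and 53.6 in control pools. Control pool 3 lay above diabetes-exposed pool 1, and the log2 fold change of 0.68 ± 0.39 (SE) did not pass (adjusted p = 0.21). Probe set 1457554_at was too dim to be tested, with 4.0 to 7.7 in diabetes-exposed pools and 1.9 to 21.5 in control pools.

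Apolipoprotein E (Apoe), a ligand of receptors of the LDL receptor family that macrophages and other cells also make, read 777, 1066 and 841 in diabetes-exposed pools and 899, 763 and 814 in control pools. The groups overlapped. The log2 fold change was 0.11 ± 0.14 (SE, 95% interval -0.21 to 0.42, adjusted p = 0.59), and it was -0.03 without diabetes-exposed pool 2.

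Selenoprotein P (Selenop), which carries selenium in plasma and delivers it to other tissues, had the smallest standard error of the genes that rose. Probe set 1452141_a_at read 6456, 5743 and 6736 in the diabetes-exposed pools against 4038, 3613 and 3993 in the control pools. The lowest diabetes-exposed pool was well above the highest control pool. The means were 6311 ± 512 in diabetes-exposed and 3881 ± 233 in control pools (SD, n = 3 each), a log2 fold change of 0.70 ± 0.09 (SE, 95% interval 0.49 to 0.91, adjusted p = 0.0011, 1.62-fold).

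**Figure D4:**
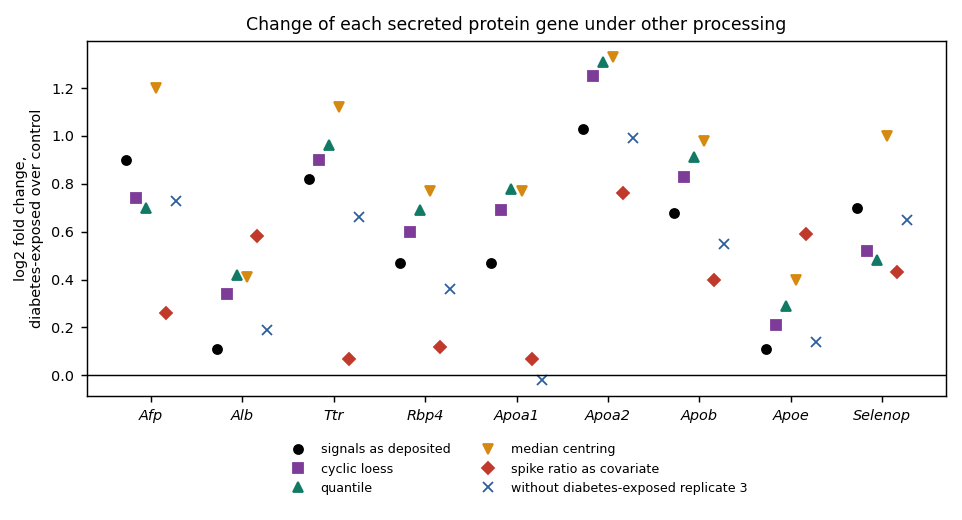
Log2 fold change (diabetes-exposed over control) of each secreted protein gene as fitted to the deposited signals and under 5 alternatives, 1 symbol for each. The point of Apoa1 without diabetes-exposed pool 3, at -0.02, is the only one below 0, and Afp and Ttr are lowest with the spike ratio as a covariate, at 0.26 and 0.07.

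These calls were also examined against the spike ratio. With the spike ratio as a covariate in the fit, the log2 fold changes were 0.26 for Afp (adjusted p = 0.6), 0.07 for Ttr (adjusted p = 0.94), 0.76 for Apoa2 (adjusted p = 0.28) and 0.43 for Selenop (adjusted p = 0.18). No member was called in that fit, with 3 member genes at an unadjusted p under 0.05. Of all 13956 genes, 11 were called higher and 241 lower in it, against 2461 and 2779 in the reported fit. The absence of calls is thus not particular to the members. All 9 fold changes were above 0, with a median of 0.40. Alb (0.58) and Apoe (0.59) then had larger fold changes than Afp at 1416645_a_at, also without a call, whereas Afp 1436879_x_at gave 1.42 (adjusted p = 0.14). The other probe sets of Ttr gave 1.11 (1451580_a_at), 0.18 (1459737_s_at) and -0.23 (1455913_x_at) in this fit, so they no longer pointed one way. A fit with diabetes-exposed pool 2 alone, the exposed pool nearest to the controls in spike ratio, was added after seeing the data and assumes that this pool varies like the controls. Since it leaves 1 exposed pool, only its log2 fold changes are given. They were 0.57 for Afp, 0.83 for Apoa2, 0.57 for Selenop and 0.41 for Ttr. The median was 0.42 over the 9 genes and 0.02 over all genes. The spike ratio of this pool (3.47) was still above the 2.07 to 2.52 of the control pools. The fit therefore does not remove the difference in spike ratio.

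Other proteins of the same source were read from lists of related genes. The counts of every list below stand beside 17.6% of all genes called higher and 19.9% called lower. Of all 13956 genes, median centring called 4066 higher and 1218 lower, quantile normalization 3359 and 2145, and cyclic loess 2829 and 2369. In the fit that held the spike ratio, 0 of the 182 tested genes on all these lists were called higher and 4 were called lower. Of all 13956 genes, 11 were called higher and 241 lower in that fit. Of 12 other apolipoproteins, 8 were tested, 2 rose, 0 fell and the median log2 fold change was 0.34. These were Clu, clusterin, a lipid-associated chaperone of plasma (621 ± 138 in diabetes-exposed and 339 ± 17.1 in control pools, SD, n = 3 each, log2 fold change 0.85, adjusted p = 0.0064), and Apoc1, an inhibitor of lipoprotein lipase (237 ± 59.8 in diabetes-exposed and 131 ± 29.9 in control pools, log2 fold change 0.86, adjusted p = 0.027). Of 53 other plasma proteins of hepatocytes, 22 were tested, 2 rose and 0 fell, and 20 of the 22 had a fold change above 0 (median 0.36). Those that rose were Serpinf1, which codes for pigment epithelium-derived factor (log2 fold change 0.45, adjusted p = 0.0037), and the complement protease Cfi (1.12, adjusted p = 0.021). Another probe set of Serpinf1, 1453724_a_at, went the other way (log2 fold change -2.82, adjusted p = 0.01). The count of plasma proteins that rose depended on the scaling, and was 13 under median centring, 13 under quantile normalization and 9 under cyclic loess.

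Genes of lipoprotein assembly and remodelling were mixed, with 4 higher and 4 lower of 19 tested, and 4 or 5 higher and 2 lower under the other scalings. Sar1b, a GTPase of the coat that carries lipoprotein particles from the endoplasmic reticulum, rose (0.85, adjusted p = 0.0013), as did lipoprotein lipase, Lpl (0.62, adjusted p = 0.0042), and the lipid droplet protein Cideb (1.08, adjusted p = 0.017). At another probe set of Lpl, 1431056_a_at, the signal fell by 0.96 (adjusted p = 0.039). Sort1, a sorting receptor in the Golgi apparatus, fell by 0.86 on the log2 scale (adjusted p = 0.0031), and endothelial lipase, Lipg, fell by 0.96 (adjusted p = 0.0037). The cholesterol exporter Abca1 fell by 0.32 (adjusted p = 0.027), a call that ended under all 3 other scalings.

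Among 17 receptors and uptake genes, 2 were called higher and 5 lower (median log2 fold change -0.09, which turned to between 0.09 and 0.21 under the other scalings). Lrpap1, the chaperone of LDL receptor relatives, rose (0.53, adjusted p = 0.0043). The transferrin receptor Tfrc was called higher at the probe set read (0.33, adjusted p = 0.043), whose call ended under quantile normalization and cyclic loess and whose fold change turned to -0.02 with the spike ratio covariate. Another Tfrc probe set, 1422966_a_at, fell by 1.86 (adjusted p = 0.0027), so the probe sets of this gene disagreed. Lrp1, a receptor for Apoe and other ligands, had 548, 517 and 425 in diabetes-exposed pools and 1552, 1401 and 1137 in control pools, a fall with no overlap (log2 fold change -1.45, adjusted p = 0.00049). Lrp8, a receptor for Selenop and Apoe, fell by 0.88 (adjusted p = 0.0047), and the sorting receptor Sorl1 fell by 0.79 (adjusted p = 0.0079), a call that ended under median centring. Under median centring 3 rose and 2 fell.

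Of 18 genes that code for selenoproteins or act in their synthesis, 8 rose and 3 fell, beside 17.6% and 19.9% of all genes. Those that rose were Sephs2 and Pstk, which act in synthesis, and the selenoproteins Gpx1, Gpx4, Selenow, Selenos, Selenot and Selenom. Under median centring 8 rose and 0 fell, beside 4066 and 1218 of all 13956 genes. Under quantile normalization 5 rose and 3 fell, beside 3359 and 2145 of all genes. Cyclic loess also gave 5 higher and 3 lower, beside 2829 and 2369 of all genes. The smallest adjusted p-values among those that rose were those of Selenom (0.78, adjusted p = 0.0014), Selenot (0.47, adjusted p = 0.0047) and Gpx4 (0.38, adjusted p = 0.0059). The calls on Gpx4, Gpx1 and Selenow ended under quantile normalization and cyclic loess. With the spike ratio covariate Sephs2 (-0.11), Gpx1 (-0.11) and Selenow (-0.23) turned, while the others that rose stayed above 0. Selenot fell at another probe set, 1453726_s_at (log2 fold change -1.55, adjusted p = 0.013), where diabetes-exposed pool 2 read 1462 and pools 1 and 3 read 483 and 460.5, against 1905 to 2101 in the control pools. Selenon fell by 0.72 (adjusted p = 0.0031), Eefsec, the elongation factor that brings selenocysteine to the ribosome, fell by 0.52 (adjusted p = 0.014), and the thioredoxin reductase Txnrd1 fell by 0.38 (adjusted p = 0.024). Under median centring these 3 calls ended, that of Eefsec also under quantile normalization (adjusted p = 0.086), and Txnrd1 turned to 0.01 with the spike ratio covariate. Across all lists, 6 of 62 called genes had another tested probe set called in the opposite direction.

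Of 25 regulators of hepatic and endoderm genes, each at its brightest probe set, 0 were called higher and 6 lower, beside 17.6% and 19.9% of all genes (median -0.32, and between -0.13 and -0.02 under the other scalings). Rxra, the partner of many nuclear receptors, had 299, 220.5 and 186 in diabetes-exposed pools and 763.5, 711 and 570.3 in control pools (log2 fold change -1.55, adjusted p = 0.00098). Tbx3, needed for the growth of the liver bud, fell by 0.79 (adjusted p = 0.0022), and Nr2f1, an orphan nuclear receptor, fell by 0.69 (adjusted p = 0.0027, not called under median centring). The other 3 were Gata6, Foxa1, whose call ended under median centring and quantile normalization (adjusted p = 0.074 and 0.0534), and Tcf7l2, whose call ended under all 3 other scalings. The probe sets of Tcf7l2 disagreed, since 1429428_at, read here, had a log2 fold change of -0.52, while 1429427_s_at rose by 1.03 (adjusted p = 0.0028) and 1425229_a_at by 0.83 (adjusted p = 0.025). Hnf4a, the nuclear receptor central to hepatocytes, was dim (37.4 ± 5.8 in diabetes-exposed and 48.4 ± 10.5 in control pools, adjusted p = 0.49). Under the other scalings 3 to 5 regulators fell and 0 rose.

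**Figure D5:**
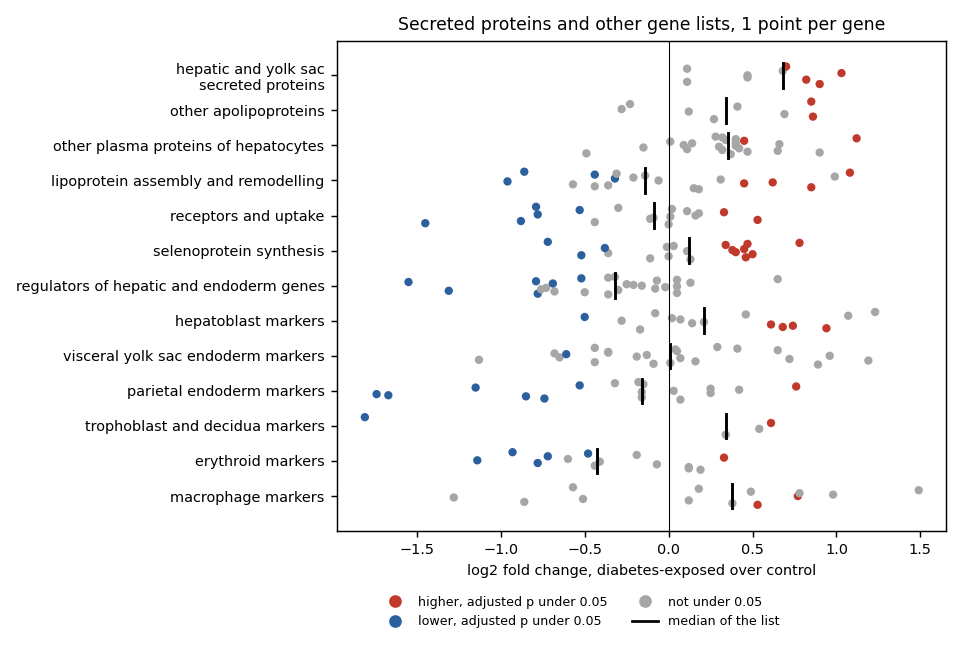
Log2 fold change (diabetes-exposed over control) of the secreted proteins in the top row and of the genes of 12 other lists below it, 1 point per gene, with the median as a bar. The secreted proteins have the highest median in this fit, 0.68. Under quantile normalization the macrophage markers had 0.71 and the secreted proteins 0.70. With the spike ratio covariate the other plasma proteins of hepatocytes had 0.49 and the secreted proteins 0.40. The regulators reach -1.55 with none called higher at the probe set read, and the point of Prl8a2 at -7.42 lies outside the axis.

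Markers of the tissues that make or carry these proteins were checked as well. The authors state that they surveyed the embryo proper. Markers of yolk sac, trophoblast and decidua are therefore not levels of a tissue that was taken on purpose. The tested visceral yolk sac endoderm markers, 23 of 30, had 0 higher and 1 lower (median 0.01), and their summed signal was 6269 to 7621 in diabetes-exposed pools and 7328 to 8143 in control pools. The only one called, Ctsz, a lysosomal protease, fell by 0.61 (adjusted p = 0.0488, not called under median centring), and had a fold change of 0.30 with the spike ratio covariate. Median centring called 7 of these markers higher and quantile normalization called 4. Of the defining markers, Rhox5 was 226 ± 72.9 in diabetes-exposed and 122 ± 36.5 in control pools (adjusted p = 0.0533), Cubn, the receptor of the yolk sac brush border, 80.6 ± 27.3 in diabetes-exposed and 84.5 ± 19.9 in control pools, and Amn, its partner, 49.6 ± 16.2 in diabetes-exposed and 47.5 ± 7.31 in control pools. Of 15 hepatoblast markers, 4 rose and 1 fell, led by the keratins Krt8 (0.94, adjusted p = 0.00088), Krt18 (0.68, adjusted p = 0.0065) and Krt19 (0.74, adjusted p = 0.011), which epithelia other than liver also express. Lgr4 fell by 0.50 (adjusted p = 0.011, not called under median centring). The hepatoblast surface protein Dlk1, which other embryonic tissues also make, gave 7516 ± 999 in diabetes-exposed and 8402 ± 373 in control pools (adjusted p = 0.24). Their part in the changes of the secreted proteins was not tested.

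Parietal endoderm, the outer layer of the yolk sac, had 1 marker higher and 6 lower of 17, against 4 higher and 3 lower under median centring. Col4a2 and Col4a1, basement membrane collagens that many tissues make, fell by 1.74 and 1.67 (adjusted p = 0.0002 and 0.00025), the receptor Pth1r fell by 1.15 on the log2 scale (adjusted p = 0.0006), and Tfpi, an inhibitor of coagulation, rose (0.76, adjusted p = 0.0013). The markers of trophoblast and decidua had 1 higher and 2 lower of 5, and 3 higher and 2 lower under each of the 3 other scalings. Prl8a2, a decidual prolactin relative, had 39.0, 39.3 and 30.7 in diabetes-exposed pools and 6522, 5699 and 6412 in control pools (log2 fold change -7.42, adjusted p = 9.7e-08). Its level in the diabetes-exposed pools was far below that in every control pool, and the part of decidual RNA in the signals of the secreted proteins was not tested. Peg10 fell by 1.81 (adjusted p = 0.012), while Hand1 rose (0.61, adjusted p = 0.0079).

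Of 14 erythroid markers, 1 was called higher, the Tfrc probe set with the reservations above, and 5 fell (median -0.43), whereas median centring gave 2 higher and 1 lower. Those that fell included the anion exchanger Slc4a1, which fell by 1.14 (adjusted p = 0.0037), Add2, which fell by 0.93 (adjusted p = 0.023), and Rhd, which fell by 0.48 (adjusted p = 0.037). The calls on Add2 and Rhd ended under all 3 other scalings. The embryonic globin Hba-x was 22568 ± 2255 in diabetes-exposed and 20752 ± 809 in control pools (adjusted p = 0.35). Of 13 macrophage markers, 2 rose and 0 fell, namely C1qb (0.77, adjusted p = 0.024) and Csf1r (0.53, adjusted p = 0.031), while the Apoe signal of the same pools was not called. That count, beside 17.6% of all genes called higher, was 6 under median centring, 4 under quantile normalization and 2 under cyclic loess. It was 0 when the probe sets of a gene were averaged and without diabetes-exposed pool 1, control pool 2 or control pool 3.

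The average profile of the 9 genes over the 6 arrays (each gene standardised) was highest in diabetes-exposed pool 3 and lowest in control pool 1. The genes most like it were Lipa, the lysosomal acid lipase, with Pearson r = 0.995, Sh3bgrl3 (0.995), Ccdc115 (0.995), Lcmt1 (0.993) and Cwc27 (0.993), out of 8670 genes brighter than the median of tested probe sets. These correlations describe 6 arrays that also differ in group and spike ratio. Lipa had 1153.5, 1234 and 1327 in diabetes-exposed pools and 826, 867 and 896 in control pools.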

How the data were processed

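Whole FVB embryos at E10.5 were compared between diabetic and normal pregnancies, 3 pools per group with 1 Affymetrix Mouse 430 2.0 array each. The authors deposited linear signal intensities for each probe set, made with GCOS and MAS5 and brought to a common average. Software versions: not given in the sources used here. Scaling makes each signal relative to the other transcripts of its pool. Detection calls were not used here, and precision is limited by the number of arrays.

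Log2 was taken of the deposited intensities. The dimmest 33.3% of probe sets and 64 control probe sets were left out, and 30025 were tested with limma 3.58.1 in R 4.3.3 (lmFit, eBayes with trend) and Benjamini-Hochberg adjustment over all of them. A gene was called at an adjusted p under 0.05 and read at its brightest tested probe set. The platform annotation gave 1 symbol to 34958 probe sets, several symbols to 932 and none to 9211. The gene numbers of 34754 were found in the RefSeq list of GRCm38.p6, with 0 symbols changed. Promoter windows came from RefSeq, GRCm38.p6. The p-values measure the spread between pools. Ratios within an array were compared by exact permutation tests over 8 ratios, those within a gene between its brightest and dimmest tested probe sets. Selenop over Trf was left out, since Trf has no value.

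The members and the gene lists were chosen with earlier results of these data known. Of each other list, up to 3 genes called in each direction with the smallest adjusted p were named, besides defining markers. Gata6, Foxa1, Tcf7l2, Hba-x and Dlk1 were named after their values were seen, as were probe sets called against the one read. The same holds for Sephs2, Pstk, Gpx1, Selenow and Selenos. The alternatives were median centring, quantile normalization, cyclic loess, a pseudocount of 32, no filter, eBayes without trend, dropping the dimmer 50%, requiring a fold of 1.5, averaging the probe sets of each gene, dropping the less specific _s_at and _x_at sets, dropping each pool, a replicate block, the spike ratio as a covariate, a regularized test and the methods' t-test. The steps were tested on simulated data with 3 against 3 arrays. They recovered 43 of 100 changes of 2-fold and 66 of 100 changes of 4-fold, and 5 of 114 calls were false. These changes were made among 30025 simulated probe sets, whereas the reported fit called 4318 higher and 6550 lower. The adjusted p depends on that share, so these rates do not give the power of the reported fit. A gene without a call can still have changed. Python 3.11.15 with matplotlib 3.10.9 drew the figures.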

Additional observations from a re-analysis of the deposited data

How the results depend on the processing

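Afp, Ttr, Apoa2 and Selenop kept their direction at the probe set read for each under every alternative. They kept their call under all but the spike ratio covariate and the methods' t-test. Calls were not read from the fit without diabetes-exposed pools 1 and 3, which leaves 1 exposed pool. With the spike ratio covariate 0 member genes and 0 member probe sets were called higher, and 0 genes of the other lists were higher and 4 lower, against 26 and 32 of 182 in the reported fit. Of all 13956 genes, 11 were higher and 241 lower with that covariate, against 2461 and 2779 in the reported fit. With the methods' t-test 0 member genes (4 at an unadjusted p under 0.05), 0 member probe sets, 0 higher and 1 lower genes of the other lists passed. That test, run here on log2 signals with Benjamini-Hochberg adjustment, called 54 of all 13956 genes higher and 236 lower. Few calls of any gene passed it. The fit without diabetes-exposed pools 1 and 3, an alternative chosen after seeing the data, called 5 member probe sets higher and gave 10 and 20 genes of the other lists. Without the less specific _s_at and _x_at sets the test called 5 of 10 member probe sets. Of all 26473 probe sets then tested, 3214 were higher and 5931 lower. A fold of at least 1.5 left 14 higher genes of the other lists, beside 990 higher and 1910 lower of all 13956 genes. Leaving out 1 pool at a time called 4 to 5 member genes, 6 to 10 member probe sets, 15 to 35 higher and 18 to 34 lower genes of the other lists. Of all 13956 genes, these fits called 1513 to 2804 higher and 1845 to 3145 lower. Without diabetes-exposed pool 2 the fold changes of Alb (-0.0017) and Apoe (-0.03) turned, and so did that of Apoa1 without diabetes-exposed pool 3 (-0.02). With 1 pool left out at a time, Alb ranged up to 0.19, Apoe up to 0.20 and Apoa1 up to 0.86, and none of these 3 had been called. Over all genes the median log2 change became 0.30 with median centring and 0.14 with quantile normalization. There were 7456 higher and 3917 lower probe sets under median centring, 6292 and 5240 under quantile normalization and 5203 and 5757 under cyclic loess, against 4318 and 6550 in the reported fit. Among genes of the other lists, median centring gave 55 higher and 13 lower, and quantile normalization gave 43 higher. Rbp4 passed under the 3 scalings, with log2 fold changes of 0.60 to 0.77, and Alb passed under quantile normalization (0.42, adjusted p = 0.0468). The deviations of same-numbered pools from their group means had correlations of 0, 0.08 and 0.12. Those of differently numbered pools lay between -0.12 and 0.07. With 3 pools per group these values cannot settle whether the numbers pair the pools. With the replicate block 5 member genes were called higher, Rbp4 among them (0.47, adjusted p = 0.021). That fit called 2413 of all 13956 genes higher and 2771 lower. The cause of these changes was not tested. With 3 pools per group, small changes cannot be told from pool spread, and dim signals such as Apob are the least certain.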
